A study of Mus musculus with 4 samples.

Results

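Of the 32285 genes in the count tables, 10 belong to the Bcl2 family of survival and death genes described here, chosen by gene symbol alone: Mcl1, Bcl2, Bcl2l1, Bcl2a1a, Bcl2a1b and Bcl2a1d, which protect cells, Bcl2l11 and Pmaip1, which trigger death, and Bax and Bak1, which carry it out. All 10 were detected. They were followed in leukocytes of transplanted mouse lungs by single-cell RNA sequencing with 3' tagging. Left lungs of C57BL/6 mice were moved into syngeneic recipients after 60 min of storage at 4 °C and 45 min at 28 °C, and cells were collected 2 h after reperfusion. There were 4 groups of 1 library each, every one pooled from 2 lungs: donor leukocytes after resolvin D1 (RvD1, a pro-resolving lipid derived from an omega-3 fatty acid), donor leukocytes after vehicle, recipient leukocytes after RvD1 and recipient leukocytes after vehicle. Each mouse received 200 ng of RvD1 in 200 µL of fluid with 1% ethanol, or the fluid alone, just before transplantation. The sources differ on whether the recipient or the graft received it. The labels give no genetic modification and no age. Every group shared the operation, the storage and the ischemia, so no healthy lung serves as a baseline.

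Proteins of the BCL2 family decide at the outer mitochondrial membrane whether a cell enters intrinsic apoptosis. BAX and BAK1 form pores there. The guardians MCL1, BCL2, BCL-XL (from Bcl2l1) and BFL1 (from the Bcl2a1 genes) hold them in check, while sensors such as BIM (from Bcl2l11) and NOXA (from Pmaip1) bind and block the guardians. Short-lived mature neutrophils are known to depend on MCL1. Among the guardians that resting lymphocytes and NK cells are known to depend on is BCL2, which is kept up by interleukin signals.

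After filtering, 5024 cells of the RvD1 donor library, 5527 of the vehicle donor library, 7345 of the RvD1 recipient library and 5829 of the vehicle recipient library were used, with medians of 6463.5, 7905, 5386 and 5830 UMIs (unique molecular identifiers, 1 per captured RNA molecule) per cell in that order. Clusters were named from marker genes, and each class name below means cells like that type. Ribosomal protein genes took a median of 3.13% of UMIs per cell in the vehicle recipient library, of which 57.3% were neutrophils, and 12.1 to 13.6% in the other 3 libraries. Within neutrophils the share was 2.14% there and 2.15 to 2.36% in the others. Any 2 libraries shared 4 to 15 barcodes. Counts were summed per class and library and are given as CPM (the gene's UMIs scaled to a fixed total for each class and library) with exact Poisson 95% intervals. With 1 library per group there was no test: ratios compare the libraries, not the conditions, and the intervals cover counting error only. The RvD1 matrices came from version 7.0.1 of Cell Ranger and the vehicle matrices from version 6.1.1, so program version and treatment cannot be told apart.

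Mcl1, the short-lived guardian, was the most abundant of the 10 genes, with 187576 of their UMIs. In neutrophils it stood at 1986 CPM in the RvD1 donor library (95% interval 1958 to 2014), 2082 in the vehicle donor library (2051 to 2114), 1916 in the RvD1 recipient library (1894 to 1938) and 1967 in the vehicle recipient library (1947 to 1987). These levels nearly coincided, and no other class came near them. Nonclassical monocytes (949 to 1209 CPM over the 4 libraries) and classical monocytes (963 to 1033) followed and overlapped each other. NK cells had 219 to 255 CPM and group 2 innate lymphoid cells 156 to 188. Because 1 tag marks 1 molecule, shares of the summed UMIs of the 10 genes can be compared between genes without a length correction where only spliced 3' ends are counted. The sources used here do not say how intronic reads were treated. Mcl1 made up 46.3%, 43.3%, 51.7% and 46.4% of that sum in neutrophils of the RvD1 donor, vehicle donor, RvD1 recipient and vehicle recipient libraries, and between 12.9% and 14.4% in NK cells.

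**Figure D1:**
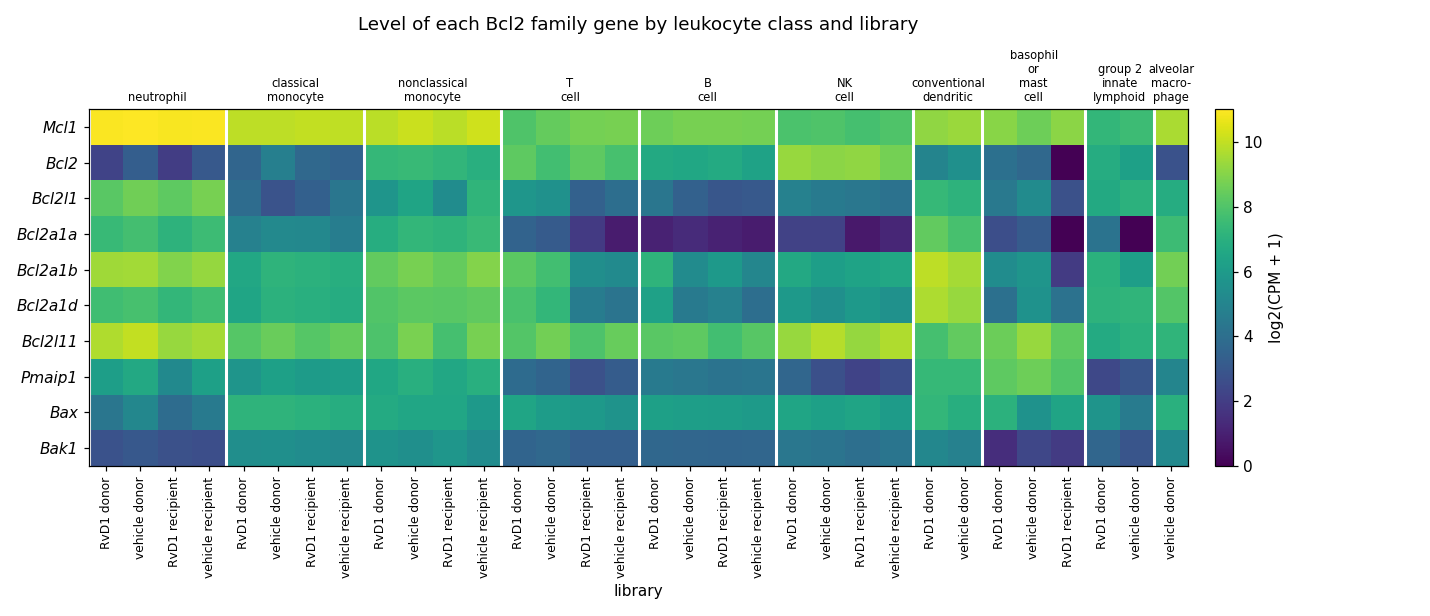
Heat map of each gene's level, as log2 of CPM plus 1 (colour scale), for the 10 genes (rows) in every leukocyte class and library with at least 50 cells (columns). Mcl1 is highest in neutrophils, Bcl2 in NK cells, the Bcl2a1 genes in conventional dendritic cells and Pmaip1 in basophils or mast cells.

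Bcl2, a guardian of resting lymphocytes, ran the other way. NK cells had 634 CPM in the RvD1 donor library (603 to 665), 557 in the vehicle donor library (538 to 577), 582 in the RvD1 recipient library (555 to 610) and 423 in the vehicle recipient library (397 to 450). T cells came next, with 312, 204, 310 and 224 CPM in the same order of libraries, then nonclassical monocytes (122 to 172) and B cells (80.2 to 105). The NK, T, nonclassical monocyte and B cell ranges did not overlap, whereas B cells and group 2 innate lymphoid cells (75.8 to 113) did. Neutrophils, at 2.96 to 8.86 CPM, were among the lowest classes. Alveolar macrophages of the vehicle donor library had 5.94 CPM, and the 67 basophils or mast cells of the RvD1 recipient library had no Bcl2 UMI. Bcl2 thus held 24.1 to 34.9% of the summed UMIs of the 10 genes in NK cells, and 0.1 to 0.2% in neutrophils. At least 1 Bcl2 UMI was seen in 71.5 to 79.0% of NK cells and in 1.09 to 2.76% of neutrophils, whose median depths were 4561.5 to 6666 and 4874.5 to 5344 UMIs.

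Bcl2l1, which encodes BCL-XL, was highest in neutrophils: 298 CPM in the RvD1 donor library (287 to 308), 391 in the vehicle donor library (378 to 405), 313 in the RvD1 recipient library (304 to 322) and 430 in the vehicle recipient library (421 to 440). Endothelial cells, of which 50 to 177 per library had passed the sort, had 141 to 200 CPM, and conventional dendritic cells 139 and 165 CPM. Levels in B cells (6.83 to 19.0 CPM) and classical monocytes (6.14 to 19.3 CPM) were low and overlapped.

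The 3 Bcl2a1 genes encode BFL1, a guardian that NF-kB induces in activated immune cells, and arose by duplication in the mouse. They lie together on chromosome 9 (GRCm38): Bcl2a1d at chr9:88723285-88731914 on the minus strand, Bcl2a1a at chr9:88956900-88962419 and Bcl2a1b at chr9:89199209-89207827, both on the plus strand. Their coding sequences, 516 bases each before the stop codon, were 97.9% identical between Bcl2a1a and Bcl2a1b, 98.6% between Bcl2a1a and Bcl2a1d and 98.8% between Bcl2a1b and Bcl2a1d. The last 90 coding bases, near the 3' end that the assay reads, are shown because they set how well the copies can be separated. The capital marks the only position at which they differ.
Bcl2a1a: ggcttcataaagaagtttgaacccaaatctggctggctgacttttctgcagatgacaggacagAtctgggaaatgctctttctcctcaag
Bcl2a1b: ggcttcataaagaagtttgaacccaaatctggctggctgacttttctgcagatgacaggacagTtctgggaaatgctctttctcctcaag
Bcl2a1d: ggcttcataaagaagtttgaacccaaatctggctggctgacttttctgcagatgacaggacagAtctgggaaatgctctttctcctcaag
Over the last 300 transcript bases the copies were 97.4 to 99.3% identical, so the value of each copy is uncertain and the sum is the firmer measure. Bcl2a1d is overlapped on the other strand by Gm10634. Another copy, Bcl2a1c, had 8 UMIs in all.

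Conventional dendritic cells, which reached 50 cells in the donor libraries only, had the highest level of all 3 copies among whole classes. Their leading genes included Ccl17 and Ccl22, and also the macrophage genes C1qa and C1qb. Their summed Bcl2a1 level was 2116 CPM in the RvD1 donor library and 1593 in the vehicle donor library, 61.0% and 51.8% of the UMIs of the 10 genes. Neutrophils had summed levels of 1059, 1152, 775 and 999 CPM in the RvD1 donor, vehicle donor, RvD1 recipient and vehicle recipient libraries, and nonclassical monocytes 713, 894, 786 and 1001 CPM. Neutrophil clusters ranged widely: cluster 7 had 1811, 1895, 2125 and 2003 CPM in the same order, overlapping dendritic cells, and cluster 2 had 197, 240, 170 and 268 CPM. The balance of the copies differed between classes. Bcl2a1a stood at 138 to 208 CPM in neutrophils and 227 to 334 CPM in dendritic cells, yet at no more than 10.4 CPM in B, NK and T cells, where Bcl2a1b reached 306 CPM and Bcl2a1d 229 CPM.

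Promoters of the 3 copies are shown because the genes varied together: over 36 combinations of class and library, log2(CPM + 1) of Bcl2a1b and Bcl2a1d correlated with Pearson's r = 0.91, Bcl2a1a and Bcl2a1b with 0.85 and Bcl2a1a and Bcl2a1d with 0.79. These points share libraries and near-identical sequence, and no p is given. The windows run from 250 bases before to 50 after the RefSeq start in GRCm38.p6, 5′ to 3′ on the gene's strand. Capitals mark GAGGAAGT, a core bound by the myeloid and B cell factor PU.1, searched on both strands.
Bcl2a1a, chr9:88956670-88956969, plus strand: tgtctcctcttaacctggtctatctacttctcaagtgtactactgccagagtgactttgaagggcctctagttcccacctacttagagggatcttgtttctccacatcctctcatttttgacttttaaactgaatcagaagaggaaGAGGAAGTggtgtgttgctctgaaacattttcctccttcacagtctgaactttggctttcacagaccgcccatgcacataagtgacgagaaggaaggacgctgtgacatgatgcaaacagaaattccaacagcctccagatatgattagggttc
Bcl2a1b, chr9:89199023-89199322, plus strand: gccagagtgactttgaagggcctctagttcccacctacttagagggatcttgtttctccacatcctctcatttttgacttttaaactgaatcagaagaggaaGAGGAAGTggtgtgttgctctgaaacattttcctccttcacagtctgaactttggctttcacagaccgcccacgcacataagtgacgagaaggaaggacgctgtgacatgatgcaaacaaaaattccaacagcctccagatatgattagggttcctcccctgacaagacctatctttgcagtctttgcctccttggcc
Bcl2a1d, chr9:88731801-88732100, minus strand: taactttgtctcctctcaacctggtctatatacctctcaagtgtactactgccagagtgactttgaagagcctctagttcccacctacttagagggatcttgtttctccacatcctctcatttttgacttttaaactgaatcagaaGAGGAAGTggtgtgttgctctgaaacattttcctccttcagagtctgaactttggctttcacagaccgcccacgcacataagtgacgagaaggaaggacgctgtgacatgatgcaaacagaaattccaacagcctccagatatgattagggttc
Aligned, the windows were 99.2% identical between Bcl2a1a and Bcl2a1b, 96% between Bcl2a1a and Bcl2a1d and 96.5% between Bcl2a1b and Bcl2a1d. The core occurred once in each and in 1052 of 32851 windows of this length, 3.20%. A match describes letters only, not a bound site.

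Bcl2l11, which encodes BIM, was the second most abundant of the genes, with 87653 UMIs, and had broad levels. Neutrophils had 847, 1035, 644 and 737 CPM in the RvD1 donor, vehicle donor, RvD1 recipient and vehicle recipient libraries, and NK cells 635, 877, 629 and 832 CPM. The 2 classes overlapped, although neutrophils carried almost no Bcl2 and NK cells the most. With mitochondrial, ribosomal protein and haemoglobin genes left out of the class totals, NK cells came out highest. Group 2 innate lymphoid cells (106 and 130 CPM) and endothelial cells (93.5 to 175 CPM) had low levels that overlapped. The gene lies at chr2:128126038-128162547 on the plus strand (GRCm38). One of its promoter windows is shown because FOXO factors, which bind forkhead motifs, are known to induce it and were followed below; capitals mark GTAAACA, the other strand of the forkhead motif TGTTTAC.
Bcl2l11, chr2:128125788-128126087, plus strand: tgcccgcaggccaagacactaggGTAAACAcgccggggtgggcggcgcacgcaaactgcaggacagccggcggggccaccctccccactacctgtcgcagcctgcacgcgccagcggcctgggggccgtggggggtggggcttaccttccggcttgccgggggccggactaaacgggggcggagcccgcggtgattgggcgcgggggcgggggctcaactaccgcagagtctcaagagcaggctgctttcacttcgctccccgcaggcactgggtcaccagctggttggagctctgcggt
That motif was in 1199 of 32851 windows, 3.65%, and was absent from a second annotated Bcl2l11 window.

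Pmaip1, which encodes NOXA, the sensor that binds MCL1, was highest in the class of basophils or mast cells: 311 CPM in the RvD1 donor library, 387 in the vehicle donor library and 262 in the RvD1 recipient library. That was 21.5%, 23.9% and 21.0% of the UMIs of the 10 genes. In 86, 69 and 67 cells these levels stood clear of conventional dendritic cells, at 166 CPM in both donor libraries. NK cells (3.68 to 11.3 CPM) and group 2 innate lymphoid cells (4.31 and 6.59 CPM) were low and overlapped. No sequence is shown for this gene.

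The pore formers were the scarcest genes together with Pmaip1: 13535 UMIs for Bax, 3711 for Bak1 and 10308 for Pmaip1. Bax stood at 159 and 119 CPM in conventional dendritic cells of the RvD1 and vehicle donor libraries and at 117 to 142 CPM in classical monocytes, which overlap. Neutrophils had 13.7 to 33.1 CPM of Bax, and group 2 innate lymphoid cells 51.7 CPM in the RvD1 and 23.1 CPM in the vehicle donor library. Bak1 ran from 40.6 to 54.2 CPM in nonclassical monocytes and 35.3 to 44.3 CPM in classical monocytes, again overlapping. Neutrophils had 5.31 to 7.14 CPM of Bak1. The 6 guardian genes together took 78.0%, 75.6%, 81.1% and 80.2% of the UMIs of the 10 genes in neutrophils of the RvD1 donor, vehicle donor, RvD1 recipient and vehicle recipient libraries, and 58.5%, 49.4%, 56.8% and 47.6% in NK cells. In basophils or mast cells the guardian share was 43.3%, 33.2% and 46.7% in the RvD1 donor, vehicle donor and RvD1 recipient libraries.

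**Figure D2:**
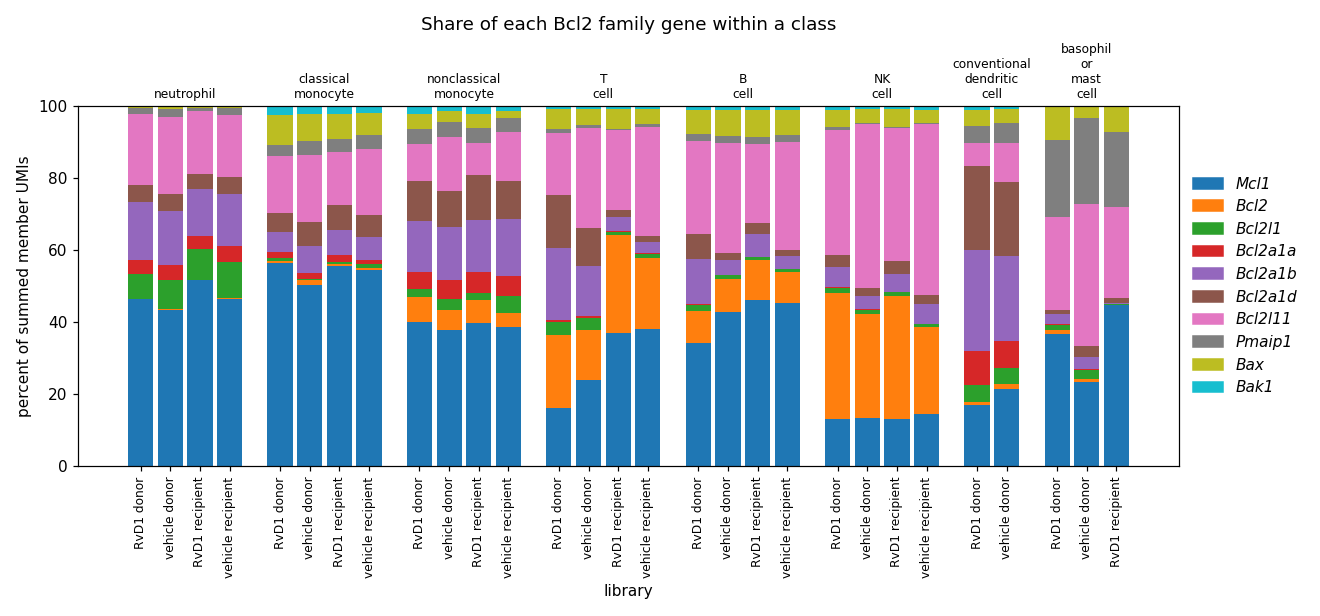
Stacked bars of the share of each of the 10 genes (percent of their summed UMIs) in 8 leukocyte classes, 1 bar per library. Mcl1 fills 43.3 to 51.7% of the bar in neutrophils, Bcl2 and Bcl2l11 together most of it in NK cells, and Pmaip1 above 20% only in basophils or mast cells among the classes drawn.

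RvD1 over vehicle was compared within each class and origin. A log2 ratio is given where a gene had at least 100 UMIs over both libraries and each had at least 100 cells, with an exact binomial 95% interval, and ratios of 1.5-fold or more were counted. In donor cells, 4 of 65 gene and class pairs were higher and 7 lower, where over all genes and classes 6.43% and 11.3% of pairs were, so the 10 genes passed about as often as genes in general. In recipient cells 3 of 51 were higher and 6 lower, against 5.82% and 7.64% of all pairs. Of 50 pairs measured in both origins, 2 were higher and 4 lower in both, against 1.81% and 3.64% of all pairs. The 2 higher were Bcl2a1b and Bcl2a1d in B cells; the 4 lower were Bcl2 and Bax in neutrophils and Bcl2l1 and Bcl2l11 in nonclassical monocytes. Median ratios over all measured genes lay within 0.1 of 0 on the log2 scale except for -0.20 in donor B cells, -0.11 in donor T cells and 0.12 in recipient neutrophils, and changes are to be read against these.

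**Figure D3:**
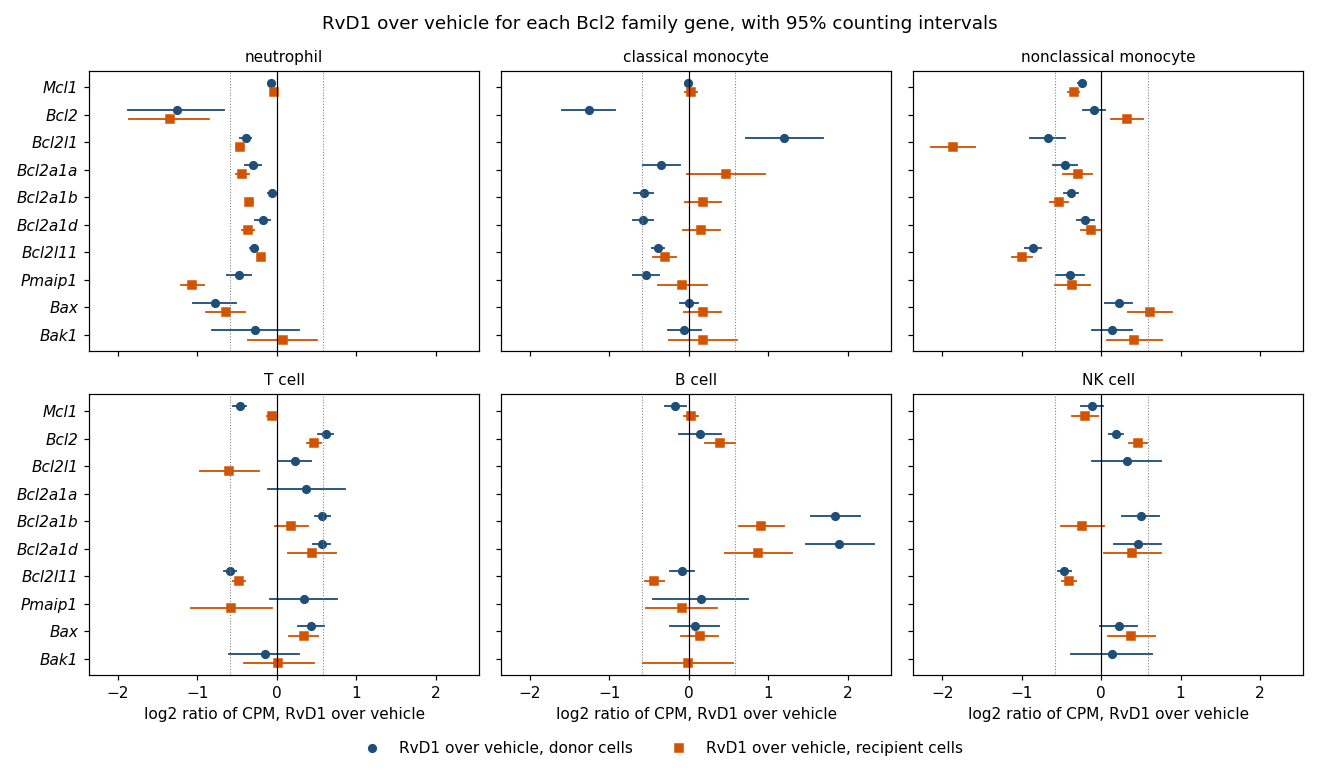
Log2 ratio of RvD1 over vehicle (horizontal axis) for each gene in 6 leukocyte classes, with circles for donor and squares for recipient cells, bars for exact binomial 95% intervals and dotted lines at 1.5-fold. Bcl2l11 lies left of 0 in every class drawn, and Bcl2a1b and Bcl2a1d in B cells lie to the right of the 1.5-fold line in both origins.

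Bcl2l11 was lower in the RvD1 than in the vehicle library in 13 of 13 comparisons, by ratios of -0.99 to -0.09, and the interval lay below 0 in 12. The exception was donor B cells, at 291 CPM in the RvD1 and 309 CPM in the vehicle library, where the ratio of -0.09 (-0.24 to 0.07) became 0.06 and 0.07 with 2 other scalings. Only 4 of the 13 passed 1.5-fold: nonclassical monocytes of both origins, donor T cells and donor dendritic cells. All rest on the same 4 libraries and compare whole classes. Within single clusters the direction was not always the same. In recipient cells of B cell cluster 19 Bcl2l11 was higher past 1.5-fold, with 168 UMIs in 152 RvD1 cells against 95 in 111 vehicle cells. Mcl1 was lower in 11 of 13 comparisons but by little, with ratios of -0.47 to 0.03 and none past 1.5-fold. Bax was higher in 11 of 13, Bcl2 in 7 of 12, Bak1 in 7 of 11 and Bcl2l1 in 4 of 9, and Pmaip1 was lower in 9 of 11. The all-gene median was itself below 0 in most of these comparisons. How often genes in general were so one-sided was not counted.

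In neutrophils, 2 of 10 genes passed 1.5-fold downward in donor cells, where 15.2% of all measured genes did, and 3 of 10 in recipient cells, where 12.7% did. In both origins together it was 2 of 10, against 9.34% of genes. Bcl2 was at 3.71 CPM in the RvD1 donor library (2.61 to 5.11) against 8.86 in the vehicle donor library (6.94 to 11.2), and at 2.96 in the RvD1 recipient library (2.16 to 3.96) against 7.49 in the vehicle recipient library (6.32 to 8.82). RvD1 values were lower in both pairs, with log2 ratios of -1.26 (-1.87 to -0.67) and -1.34 (-1.86 to -0.85). The counts behind them were small, 37 and 72 UMIs in donor and 45 and 144 UMIs in recipient cells, RvD1 first in each pair, in 21, 39, 33 and 77 cells. Of those cells, 6, 12, 3 and 26 also held a UMI of a T, B or NK marker gene, and the part of such cells in the ratio was not tested.

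Neutrophil clusters were unevenly shared. Cluster 4, led by Enthd1, Fnip2 and Creb5, held 75 of 1900 RvD1 donor, 656 of 1414 vehicle donor, 22 of 3038 RvD1 recipient and 804 of 3339 vehicle recipient neutrophils, and cluster 7, led by Cxcl3, Ccl3 and Ccl4, held 691, 82, 501 and 104. Bcl2 stood at 12.9 and 16.7 CPM in cluster 4 of the vehicle donor and recipient libraries. Without cluster 4, a choice made after seeing the data, it was at 3.76 and 5.18 CPM in RvD1 and vehicle donor neutrophils, too few UMIs for a ratio, and at 2.91 and 4.54 CPM in recipient ones, a ratio of -0.64. Of the 66 Bcl2 UMIs then left in vehicle recipient neutrophils, 23 came from the 55 cells of cluster 24. The RvD1 recipient library had 32 cells there, too few for a level. The part of cluster 24 in that ratio was not tested.

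Bax, the other gene lower in neutrophils of both origins, was at 19.2 CPM in the RvD1 against 33.1 CPM in the vehicle donor library and at 13.7 CPM in the RvD1 against 21.4 CPM in the vehicle recipient library. The ratios of -0.78 (-1.06 to -0.51) and -0.64 (-0.89 to -0.40) were -0.44 and -0.46 without cluster 4, below 1.5-fold. Pmaip1 was past 1.5-fold in recipient neutrophils alone, at 36.4 CPM after RvD1 (33.4 to 39.5) against 76.1 after vehicle (72.3 to 80.1), a ratio of -1.06. Donor neutrophils had 71.8 CPM after RvD1 against 99.8 after vehicle, a ratio of -0.48. Within cluster 5, recipient Pmaip1 was 34.1 CPM after RvD1 against 57.9 after vehicle, and within cluster 6 it was 66.6 against 134. Over the whole class the abundant neutrophil guardians moved less: Mcl1 ratios were -0.07 and -0.04, Bcl2l1 ratios -0.39 and -0.46, and summed Bcl2a1 ratios -0.12 and -0.37, donor before recipient. Within cluster 13, summed Bcl2a1 was 859 CPM after RvD1 against 1299 after vehicle in donor cells and 760 against 1123 in recipient cells. Within cluster 7 it was 1811 against 1895 and 2125 against 2003 CPM. In recipient cells of cluster 2 it was 170 against 268 CPM. Among clusters with both values, only recipient cluster 7 was higher after RvD1.

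In nonclassical monocytes, 2 of 10 genes were lower past 1.5-fold in donor cells (12.3% of all measured genes), and 2 of 10 lower (11.4%) and 1 higher (8.41%) in recipient cells. The 2 lower genes were the same ones, Bcl2l1 and Bcl2l11, against 5.81% of genes lower in both origins. Bcl2l11 was at 248 CPM in the RvD1 against 448 in the vehicle donor library and at 217 in the RvD1 against 432 in the vehicle recipient library, with ratios of -0.86 (-0.96 to -0.75) and -0.99 (-1.13 to -0.86). Bcl2l1 was at 53.2 CPM in the RvD1 against 84.9 in the vehicle donor library and at 40.3 in the RvD1 against 146 in the vehicle recipient library, ratios of -0.67 (-0.90 to -0.45) and -1.86 (-2.14 to -1.58). RvD1 libraries were the lower ones in all 4 pairs. Bax was the higher gene, at 91.0 CPM in the RvD1 against 59.4 in the vehicle recipient library, a ratio of 0.62 (0.34 to 0.89), and 0.22 in donor cells. The recipient ratio was 0.51 with doublets kept and 0.56 with median-of-ratios scaling, both below 1.5-fold.

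Neutrophil RNA also differed between the nonclassical monocyte libraries. The 12 neutrophil marker genes summed to 11106 CPM in the RvD1 donor, 10170 in the vehicle donor, 6925 in the RvD1 recipient and 32012 in the vehicle recipient nonclassical monocytes. In neutrophils they summed to 115216, 78345.5, 129673 and 129284 CPM in the same order. Marker CPM therefore does not measure neutrophil RNA alike in the donor pair. At the neutrophil ratio to S100a9, neutrophil RNA would account for 51.6%, 55.4%, 37.8% and 71.2% of the Bcl2l1 UMIs. Cluster 17, the one of the 2 nonclassical clusters that carried S100a9, held 73 of 303, 222 of 588, 52 of 384 and 96 of 201 cells in the same order. There Bcl2l1 was at 147, 155, 181 and 219 CPM, against 9.43 to 11.7 CPM in cluster 11. With neutrophil RNA subtracted at the neutrophil ratio to S100a9, a step added after seeing the data, Bcl2l1 ratios were -0.56 and -0.75 and Bcl2l11 ratios -0.93 and -0.45. In cluster 11 alone Bcl2l11 was at 180 CPM in the RvD1 against 281 in the vehicle donor library and at 169 in the RvD1 against 206 in the vehicle recipient library. These ratios were -0.64 and -0.28, and Bcl2l1 had too few UMIs there for one. The recipient Bax ratio was 0.45 in cluster 11, below 1.5-fold, and 0.74 with neutrophil RNA subtracted. With every cell of the class thinned to 2000 UMIs, the donor Bcl2l1 ratio was -0.56, below 1.5-fold.

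**Figure D4:**
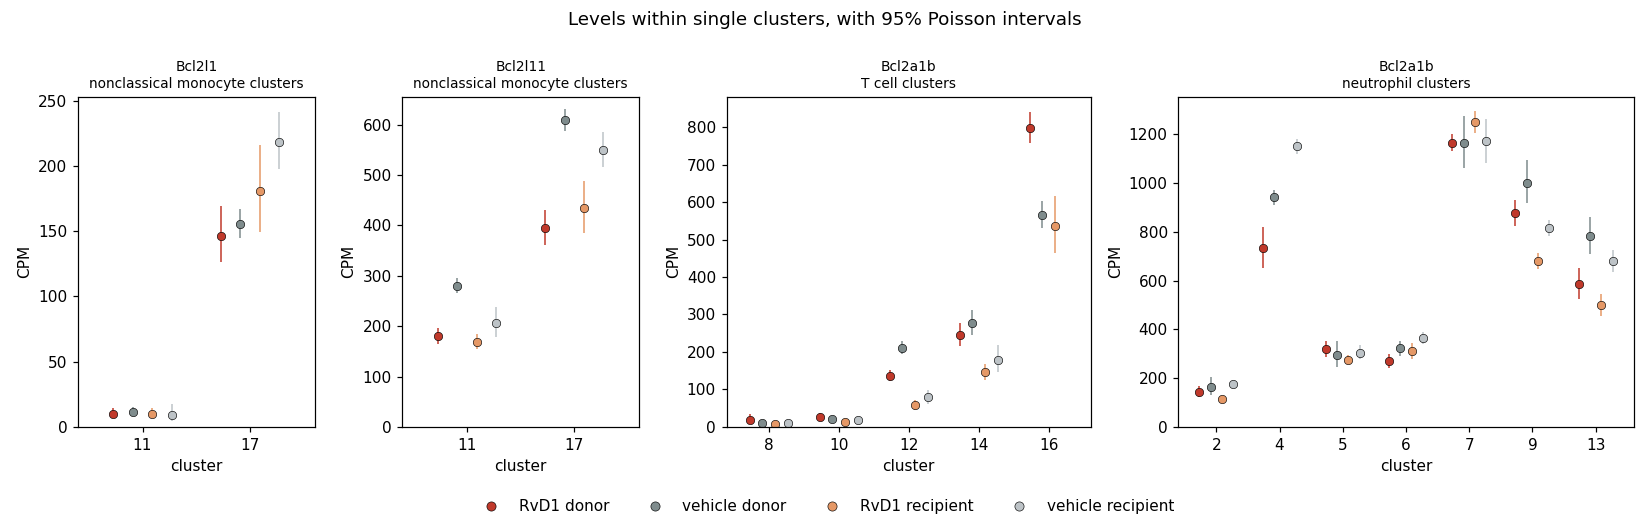
Levels in CPM with exact Poisson 95% intervals by cluster and library: Bcl2l1 and Bcl2l11 in nonclassical monocyte clusters 11 and 17, Bcl2a1b in the T cell clusters and Bcl2a1b in the neutrophil clusters. Bcl2l1 is near 10 CPM in cluster 11 and at 147 CPM or above in cluster 17, and Bcl2a1b in T cells is highest in the gamma-delta cluster 16.

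In B cells, Bcl2a1b and Bcl2a1d were the 2 genes past 1.5-fold upward, of 7 measured in donor cells (3.72% of all measured genes) and 8 in recipient cells (2.42%); 0.592% of genes were higher in both origins. Bcl2a1b was at 141 CPM in the RvD1 donor library (125 to 160) against 39.5 in the vehicle donor library (32.9 to 46.9), and at 59.9 in the RvD1 recipient library (53 to 67.5) against 32.0 in the vehicle recipient library (27.3 to 37.2). The RvD1 donor library stood well above the other 3. The donor ratio was 1.84 (1.53 to 2.16) and the recipient ratio 0.91 (0.62 to 1.19), and for Bcl2a1d these were 1.89 and 0.87. The summed copies, at 222 CPM after RvD1 against 62.4 after vehicle in donor cells and 88.4 against 47.7 in recipient cells, gave 1.83 (1.58 to 2.08) and 0.89 (0.66 to 1.12). No other member passed 1.5-fold in B cells. Bcl2 ratios were 0.14 and 0.39 and Mcl1 ratios -0.17 and 0.03, donor before recipient.

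Neutrophil RNA was also measured beside the B cell values. S100a9 stood at 1065 CPM in RvD1 donor, 36.1 in vehicle donor, 141 in RvD1 recipient and 423 in vehicle recipient B cells. At the neutrophil ratio of Bcl2a1b to S100a9 this would account for 9.44%, 1.83%, 1.93% and 14.3% of the Bcl2a1b UMIs, and with that amount subtracted the donor ratio was 1.72. A single cell held 16.5% of the Bcl2a1b UMIs in RvD1 donor B cells. After thinning every cell to 2000 UMIs, 12.4% of RvD1 donor, 6.38% of vehicle donor, 7.40% of RvD1 recipient and 5.38% of vehicle recipient B cells had a Bcl2a1b UMI, and the donor ratio was 1.10. Both copies were past 1.5-fold in both origins within B cell cluster 0 alone.

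T cells had 1 gene higher and 1 lower of 10 in donor cells, where 5.07% and 9.3% of genes were, and 1 lower of 9 in recipient cells, where 5.39% were. No gene passed in both. The donor pair was Bcl2 and Bcl2l11, which moved apart. Bcl2 was at 312 CPM in the RvD1 (299 to 326) against 204 in the vehicle donor library (195 to 214) and at 310 in the RvD1 (300.4 to 319) against 224 in the vehicle recipient library (213 to 235). The ratios were 0.61 (0.52 to 0.70) and 0.47 (0.38 to 0.55). Bcl2l11 was at 268 CPM in the RvD1 against 403 in the vehicle donor library and at 249 in the RvD1 against 347 in the vehicle recipient library, ratios of -0.59 and -0.48. Without T cell clusters 14 and 16, left out after seeing the data, the donor Bcl2l11 ratio was -0.40, and with median-of-ratios scaling -0.48, both below 1.5-fold. The recipient gene was Bcl2l1, at 9.87 CPM after RvD1 against 15 after vehicle, a ratio of -0.60 (-0.97 to -0.22). That ratio was 0.02 after thinning and -0.09 with doublets kept.

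The relation of guardian to sensor can be read as the Bcl2 share of Bcl2 plus Bcl2l11 UMIs, which does not depend on library scaling. In T cells it was 53.8% in the RvD1 (52.3 to 55.4) against 33.7% in the vehicle donor library (32.4 to 34.9) and 55.5% in the RvD1 (54.4 to 56.6) against 39.2% in the vehicle recipient library (37.8 to 40.7). It was higher in the RvD1 library in 9 of 9 comparisons within T cell clusters and origins. The clusters were cut from the same libraries, so these comparisons are not replicates. In cluster 8, of CD4 T cells, the share was 64.7% after RvD1 against 44.9% after vehicle in donor cells and 56.4% against 43.6% in recipient cells. In cluster 10, of CD8 T cells, it was 62.2% after RvD1 against 40.1% after vehicle in donor cells and 60.8% against 39.9% in recipient cells. NK cells had 49.95% after RvD1 against 38.9% after vehicle in donor cells and 48.1% against 33.7% in recipient cells. B cells had 26.1% (22.9 to 29.4) after RvD1 against 23.2% (20.9 to 25.6) after vehicle in donor cells, which overlap, and 33.6% against 22.2% in recipient cells. Nonclassical monocytes had 39.5% against 27.8% in donor cells and 41.3% against 22.0% in recipient cells. In their cluster 11 alone the share was 46.9% against 41.1% in donor cells. In recipient cells of cluster 11 it was 48.3% (45.2 to 51.5) against 46.5% (41.3 to 51.7), which overlap. Neutrophils had lower ones, 0.44% after RvD1 against 0.85% after vehicle in donor cells and 0.46% against 1.01% in recipient cells. Classical monocytes were lower in donor cells, 3.86% against 6.84%, and higher in recipient cells, 4.20% against 2.97%. In recipient cells of B cell cluster 19 the share was 45.1% after RvD1 against 55.0% after vehicle. Neither gene passed 1.5-fold in NK cells, where Bcl2 ratios were 0.18 and 0.46 and Bcl2l11 ratios -0.47 and -0.40. None of 8 genes did in donor NK cells, where 12.2% of all measured genes passed in either direction, nor any of 6 in recipient NK cells, where 7.88% did. Both Bcl2 and Bcl2l11 are long genes, of 176097 and 36510 bases against 4389 for Mcl1. The part of intronic reads, which program versions may count differently, was not tested.

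**Figure D5:**
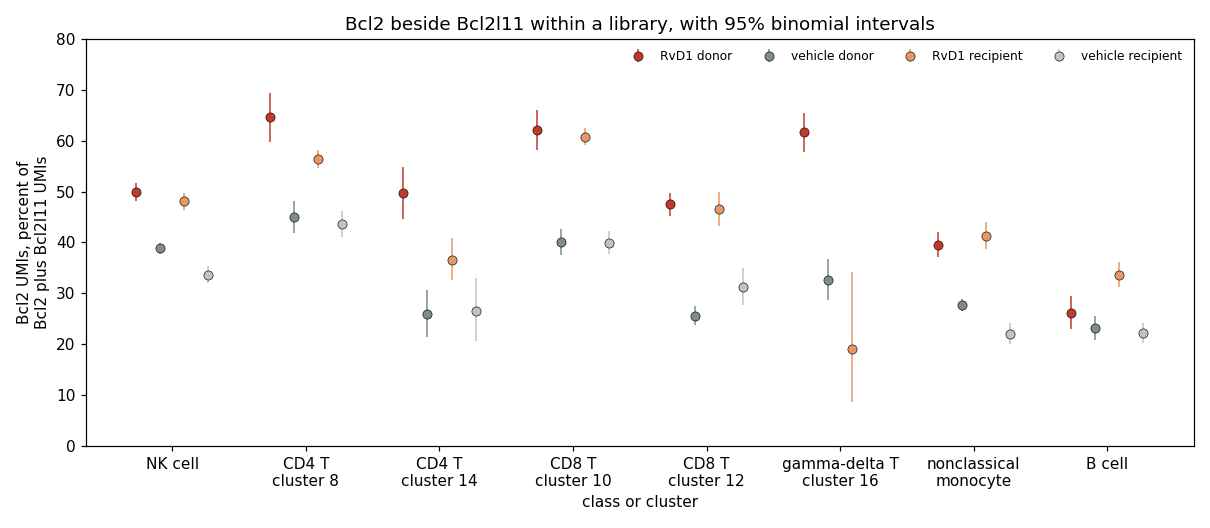
Bcl2 UMIs as a percentage of Bcl2 plus Bcl2l11 UMIs (vertical axis) in NK cells, T cell clusters, nonclassical monocytes and B cells of each library, with exact binomial 95% intervals. The RvD1 library lies above the vehicle library of the same origin in all T cell clusters with both values, as in NK cells, for which it is 49.95% against 38.9% in donor cells.

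In classical monocytes, 1 of 10 genes was higher and 1 lower past 1.5-fold in donor cells, where 9.04% and 9.09% of genes were, and none of 8 in recipient cells, where 13.3% passed in either direction. Bcl2 was at 11 CPM in the RvD1 against 26.4 in the vehicle donor library, a ratio of -1.26 (-1.59 to -0.94). Bcl2l1 was at 14 against 6.14 CPM, a ratio of 1.19 (0.72 to 1.69). Recipient classical monocytes had too few UMIs of either for a ratio. The summed Bcl2a1 level was 212 CPM after RvD1 against 310 after vehicle in donor cells and 293 against 256 in recipient cells, on opposite sides. Conventional dendritic cells, measured in donor libraries, had 1 of 10 genes past 1.5-fold, downward as in 10.6% of all measured genes: Bcl2l11, at 221 CPM after RvD1 against 333 after vehicle, a ratio of -0.59 (-0.73 to -0.45). Their summed Bcl2a1 ratio was 0.41 and their Bcl2 ratio -0.58.

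Recipient over donor cells gave the widest differences among the genes, in T cells. Over the 6 classes, 1 of 53 pairs was higher and 8 lower after RvD1 (3.72% and 7.57% of all pairs), and 1 of 53 higher and 6 lower after vehicle (2.78% and 8.3%). After RvD1, 5 of 10 genes were lower past 1.5-fold in recipient T cells (17.1% of all measured genes) and 1 higher (5%), and after vehicle 3 of 9 were lower (16.6%). Bcl2a1b was at 42.3 CPM in recipient against 306 in donor T cells after RvD1 and at 37.3 in recipient against 206 in donor T cells after vehicle, ratios of -2.85 (-2.99 to -2.72) and -2.46 (-2.65 to -2.28). Bcl2a1d ratios were -3.25 and -3.12. Bcl2l1 was at 9.87 against 55.0 CPM after RvD1 and at 15 against 47.0 CPM after vehicle, recipient first, with ratios of -2.48 and -1.65. The remaining genes lower after RvD1 were Bcl2a1a (-1.94) and Pmaip1 (-1.27). Mcl1 was the higher gene, at 416 CPM in recipient against 250 in donor T cells after RvD1, a ratio of 0.74 (0.66 to 0.82), and 0.33 after vehicle. Bcl2 was level, with ratios of -0.01 and 0.13. All-gene medians in T cells were -0.18 and -0.22.

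The T cell class was made of different clusters by origin. Recipient T cells lay mostly in clusters 8 and 10 (799 and 606 of 1806 cells after RvD1, 305 and 322 of 791 after vehicle). Donor T cells lay most often in clusters 12 and 16 after RvD1 (290 and 220 of 813) and in 12 and 10 after vehicle (314 and 192 of 933). Bcl2a1b was highest in cluster 16, of gamma-delta T cells led by Il23r and Cd163l1, at 798, 566 and 537 CPM in the RvD1 donor, vehicle donor and RvD1 recipient libraries. Clusters 8 and 10 had 7.52 to 25.2 CPM. Within cluster 12, of CD8 T cells, recipient cells still had less, 57.6 against 136 CPM in donor cells after RvD1 and 79.4 against 211 CPM after vehicle. Within cluster 14, led by Foxp3 and Ctla4, they had 146 against 245 CPM after RvD1 and 180 against 276 CPM after vehicle. Without clusters 14 and 16, a choice made after seeing the data, Bcl2a1b ratios were -2.52 and -2.06, Bcl2l1 ratios -2.27 and -1.15 and the Mcl1 ratio after RvD1 0.55.

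Outside T cells, recipient over donor differences were fewer. After RvD1, Bcl2a1b and Bcl2a1d, 2 of 7 genes, were lower in recipient B cells (3.5% of all measured genes), with ratios of -1.24 and -1.54. After vehicle none of 7 passed in B cells (5.69% in either direction). Pmaip1, 1 of 9 genes in neutrophils after RvD1 (8.41% lower), had a ratio of -0.98 (-1.14 to -0.82), and Bax, 1 of 10 after vehicle (11.4%), -0.63 (-0.85 to -0.40). After vehicle, Bcl2l1 was higher (0.78, 0.61 to 0.96) and Bax lower (-0.60) in recipient nonclassical monocytes, 1 of 10 each way where 3.33% and 5.83% of genes were, beside the neutrophil RNA given above. In the same library pair Bcl2, 1 of 9 genes, was lower in recipient classical monocytes, a ratio of -1.33 (6.89% of genes). No gene passed in NK cells after RvD1 (3.7% in either direction) or vehicle (4.88%), nor in monocytes of either kind after RvD1 (10.3% in classical, 5.15% in nonclassical).

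Lists of related genes were counted the same way, for 1.5-fold in both origins after RvD1. Of 14 other BCL2 family genes, 2 to 5 were measured per class and none passed. In nonclassical monocytes, where 5.81% of all genes were lower in both origins, the lower list genes were Ddit3 (-0.95 and -1.04), which encodes CHOP, Gadd45a (-0.77 and -1.07) and Gadd45b (-1.07 and -0.76), 3 of 10 measured p53, FOXO and stress regulators, donor before recipient. The median of that list was -0.32 and -0.52. Fas, the death receptor (-0.67 and -1.07), was 1 of 6 in its list, Ier3 (-0.73 and -1.28) 1 of 9 genes of MCL1 turnover, and Csf2rb2 (-0.78 and -1.20), a chain of the interleukin-3 receptor, 1 of 7 cytokine receptor genes. Htra2, a mitochondrial protease released in apoptosis, was higher (0.88 and 0.66), 1 of 11 in its list, where 2.37% of all genes were. Neutrophil RNA differed between these libraries, as given above. None of the 7 genes passed 1.5-fold in both origins in cluster 11 alone, a check added after seeing the data. There Fas ratios were -0.54 and -0.02, Ier3 ratios -0.29 and 0.00, Gadd45a ratios -0.72 and -0.55, Gadd45b ratios -1.20 and 0.36 and Htra2 ratios 0.75 and 0.26. Recipient Ddit3 and Csf2rb2 had too few UMIs there. Ier3 stood at 781 to 1201 CPM in neutrophils.

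In classical monocytes, where 2.69% of all genes were lower in both origins, Gadd45a (-0.59 and -1.72) was 1 of 9 regulators and Csf2rb2 (-0.80 and -0.69) 1 of 9 cytokine receptor genes. In neutrophils, 1 of 8 MCL1 turnover genes was lower, against 9.34% of all genes: Cdk9 (-1.09 and -1.01), a kinase needed for transcription of short-lived mRNAs. No gene of any list passed in both origins in T, B or NK cells. Foxo1, a factor known to induce Bcl2l11, was at 187 CPM after RvD1 against 290 after vehicle in donor T cells and at 143 against 161 in recipient T cells, ratios of -0.63 and -0.17.

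The genes whose levels over the 36 combinations of class and library were most like those of 9 of the members, by Pearson's r of log2(CPM + 1), are given as a description. Etaa1 was closest to Bcl2 (r = 0.91), Cpd to Bcl2l1 (0.87), Lamp2 to Mcl1 (0.92), Slc26a11 to Bcl2l11 (0.83), St3gal1 to Pmaip1 (0.89) and Smdt1 to Bax (0.90). Rbm47 was closest to Bcl2a1a (0.91). For the other two copies the closest were neighbours on the chromosome, Mthfs for Bcl2a1b (0.89), 2848 bases away, and the overlapping Gm10634 for Bcl2a1d (0.88), so shared reads cannot be told apart from shared levels. Between members, Bcl2 ran against Mcl1 (-0.63) and Pmaip1 (-0.65).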

How the data were processed

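Single-cell RNA of 4 libraries was measured, and the authors deposited the unnormalized UMI count of every gene in every cell barcode as filtered matrices. Per the file headers, Cell Ranger 7.0.1 made the RvD1 count matrices and 6.1.1 the vehicle ones; the submitters' processing notes name mm10 and Seurat 4.0.0. Depth was 44338340, 61294707, 49967935 and 42199775 UMIs in the RvD1 donor, vehicle donor, RvD1 recipient and vehicle recipient libraries.

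Cells were kept from 200 genes up and to a mitochondrial share of 10%, and Scrublet removed 68, 131, 278 and 89 doublets. Clustering (scanpy 1.11.5; 2000 variable genes per library without the 10 genes described, 30 components, 15 neighbours, Leiden resolution 1) gave 29 clusters, named where at least 3 markers were detected in 10% of cells; details of naming were settled after seeing the clusters, and 2 stayed unnamed. Counts were summed per class and library. Levels needed 50 cells. Ratios carry no pseudocount. The named genes were the 10 members, from each list and class up to 4 genes of largest mean absolute ratio (printed where past 1.5-fold in both origins, and Foxo1, picked from them with its values known) and, for likeness, genes with at least 1000 UMIs. The procedure was tested on simulated counts. Alternatives changed scaling, filters, doublets, clustering, depth and thresholds. The members and lists were chosen with earlier results of these data known. Promoters are from RefSeq (GRCm38.p6; 9 of the 10 genes matched) and transcripts from GENCODE M21. The gene closest to Bak1 is not reported here.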

Additional observations from a re-analysis of the deposited data

Results flagged for a closer look

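Ratios of the RvD1 over the vehicle library pointed opposite ways in donor and recipient cells for 2 results, and the difference was not tested in either. In classical monocytes the summed Bcl2a1 ratio was 0.20 (0.04 to 0.35) in recipient cells and -0.55 (-0.63 to -0.47) in donor cells, a gap of 0.74 on the log2 scale. In T cells the Bcl2l1 ratio was -0.60 in recipient cells and 0.23 in donor cells, a gap of -0.83. With every cell thinned to 2000 UMIs the recipient ratio was 0.021, no longer below 0. Outside the 10 genes, Bcl2a1c, a copy on the same chromosome, had 8 UMIs over the 4 libraries: 1 in the RvD1 donor, 5 in the vehicle donor, 1 in the RvD1 recipient and 1 in the vehicle recipient library.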

How the results depend on the processing

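No paired analysis was possible because each group holds 1 library; for the same reason no replicate could be left out. The class with the highest level was the same for all 10 genes under the alternatives run, except that Bcl2l11 was highest in NK cells with totals without technical genes, leaving 9. Of the 6 gene and class pairs past 1.5-fold in both origins, all stayed past it under median-of-ratios scaling, totals without technical genes, a limit of 5% mitochondrial UMIs, each library clustered alone, the top 1% of cells left out and a minimum of 50 UMIs. Bcl2l1 in nonclassical monocytes fell below 1.5-fold in at least 1 origin with doublets kept, at resolution 2 and with members among the variable genes, and Bcl2 in neutrophils lacked a ratio at a minimum of 200 UMIs. At 2-fold, 0 were higher and 1 lower (Bcl2 in neutrophils). Thinning left 2 lower, as did leaving out neutrophil cluster 4, leaving out nonclassical cluster 17 or subtracting neutrophil RNA, and summing the Bcl2a1 copies left 1 higher; each loses or merges cells, UMIs or genes by construction. In donor cells, 4 higher and 7 lower pairs became 8 and 12 with libraries clustered alone and 7 and 11 without the top 1% of cells. There were 7 higher without technical genes and 2 lower at 2-fold. In recipient cells 2-fold gave 0 higher and 3 lower. For recipient over donor after RvD1, 1 higher became 5 (alone), 2 (resolution 2), 2 (members among variable genes), 4 (thinned), 0 (2-fold) and 0 (without T cell clusters 14 and 16), and 8 lower became 13 (top 1% out) and 5 (copies summed). After vehicle, 1 higher became 2 (doublets kept), 2 (alone), 2 (members among variable genes), 2 (50 UMIs) and 0 (thinned, 2-fold, without cluster 17, or neutrophil RNA subtracted), and 6 lower became 10 (top 1% out). Bcl2l1 in recipient T cells was 0.021 after thinning, against -0.60. Where no construction is named, the cause was not tested. Choices that leave out clusters or subtract neutrophil RNA were made after seeing the data. Classes under 100 cells and genes under 100 UMIs were limited by depth.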

Other observations

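The 2 unnamed clusters met no cell type list. Cluster 21 carried the markers of cycling cells, a list not used for naming, with Top2a, Birc5 and Pclaf among its leading genes. Cluster 21, 236 cells led by histone genes and Top2a and spread over all libraries (92 in the RvD1 donor, 63 in the vehicle donor, 54 in the RvD1 recipient and 27 in the vehicle recipient library), had 289 CPM of Mcl1, 244 of Bcl2l11, 125 of Bcl2a1b, 88.7 of Bax and 86.2 of Bcl2 over its summed cells. Cluster 27, 70 cells led by Xcl1 and mostly of donor origin (23 in the RvD1 donor, 43 in the vehicle donor, 4 in the RvD1 recipient and 0 in the vehicle recipient library), had 574 CPM of Bcl2l11, the sensor BIM, beside 335 of Bcl2a1b, 317 of Bcl2a1d, 288 of Bcl2 and 272 of Mcl1. No ratio was made for either cluster.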
